A study of Mus musculus with 2 samples.

Results

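The regions described here are the stretches of the mouse liver genome that were more methylated in Uhrf1 knock-in (KI) liver than in wild-type (WT) liver, although most of the genome changed the other way. The autosomes were divided into windows of 1 kb in mm9 coordinates, and a window was a member when it held at least 5 CpGs covered by at least 10 reads in both libraries and its mean methylation was higher in KI by 8 percentage points or more. Chromosome 17 from 45 to 65 Mb, which holds Uhrf1 itself, and chromosome 3 from 50 to 80 Mb were left out. Of 125898 windows that could have passed, 906 were members. The members were chosen by the difference between KI and WT, so their gains are given as a description and without a test.

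The KI mice were homozygous for Uhrf1 YP187/188AA, a pair of alanine substitutions in the tandem tudor domain, and the WT mice carried the normal gene. Both groups were C57BL/6 males of 3 months, and liver DNA of 3 mice was pooled into 1 library per genotype for reduced representation bisulfite sequencing (RRBS). The KI library is titled KI but carries a genotype label of knock out, and the title was followed. RRBS cuts DNA with MspI at CCGG, keeps short fragments and reads a cytosine that bisulfite left unconverted as methylated. The cytosines of both strands of a CpG were measured separately, and each counts as a CpG here. With 1 library per genotype there is no replicate check, and any test on reads compares these 2 libraries and not the genotypes. In a whole tissue, a shift in the mix of cells and a change within cells cannot be told apart.

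UHRF1 recognizes DNA that is methylated on only the old strand after replication and brings DNMT1 there, which copies the mark to the new strand. Its tandem tudor domain binds histone H3 methylated at lysine 9, the contact that the KI alleles were made to remove. Loss of this copying lowers methylation over cell divisions, whereas methylation where there was none is laid down by the DNMT3 enzymes. In differentiated tissue, CpG islands at the start sites of active genes are mostly unmethylated and the rest of the genome is mostly methylated.

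The sequences of 8 members carry the comparisons given further on. They were chosen because their gain rests on many CpGs, on both strands or on a gene start, or, for B3galtl, because of the way in which its reads agree. They are given 5′ to 3′ on the plus strand of mm9, and capitals mark each CpG that was measured on at least 1 strand with at least 10 reads in both libraries. The first is inside Nodal (chr10:60881288-60881577) and the second in a coding exon of Meis1 (chr11:18916177-18916465). The next were Gata2 (chr6:88144339-88144586), B3galtl (chr5:150481154-150481429) and Bcl9l (chr9:44307009-44307041), all within 1 kb of a start of the gene. The last were a stretch between genes beyond the end of Sall1 (chr8:91549349-91549484), a stretch between genes for which Zfp395 has the nearest start (chr14:65945286-65945416), and an intron of Rgl1 (chr1:154525229-154525341).
Nodal: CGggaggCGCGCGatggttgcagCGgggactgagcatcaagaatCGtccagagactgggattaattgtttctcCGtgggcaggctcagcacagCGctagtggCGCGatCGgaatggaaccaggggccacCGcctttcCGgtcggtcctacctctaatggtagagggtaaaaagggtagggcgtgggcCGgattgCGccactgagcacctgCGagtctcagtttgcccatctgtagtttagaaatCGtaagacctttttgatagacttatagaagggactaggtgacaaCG
Meis1: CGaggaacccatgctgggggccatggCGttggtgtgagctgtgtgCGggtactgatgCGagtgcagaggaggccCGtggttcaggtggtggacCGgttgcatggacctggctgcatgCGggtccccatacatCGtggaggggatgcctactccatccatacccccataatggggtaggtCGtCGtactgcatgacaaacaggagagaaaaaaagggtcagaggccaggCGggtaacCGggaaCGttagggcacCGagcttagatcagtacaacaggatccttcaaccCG
Gata2: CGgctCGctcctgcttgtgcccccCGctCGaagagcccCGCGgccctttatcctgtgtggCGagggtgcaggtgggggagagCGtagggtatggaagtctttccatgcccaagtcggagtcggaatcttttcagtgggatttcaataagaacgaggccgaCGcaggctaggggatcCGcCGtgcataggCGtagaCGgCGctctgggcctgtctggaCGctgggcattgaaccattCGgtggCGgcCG
B3galtl: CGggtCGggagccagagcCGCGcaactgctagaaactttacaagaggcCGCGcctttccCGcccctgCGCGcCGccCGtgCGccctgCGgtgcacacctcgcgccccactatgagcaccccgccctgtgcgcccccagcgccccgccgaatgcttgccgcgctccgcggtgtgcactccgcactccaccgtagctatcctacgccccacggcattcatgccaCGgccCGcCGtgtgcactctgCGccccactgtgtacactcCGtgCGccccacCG
Bcl9l: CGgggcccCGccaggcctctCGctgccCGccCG
near Sall1: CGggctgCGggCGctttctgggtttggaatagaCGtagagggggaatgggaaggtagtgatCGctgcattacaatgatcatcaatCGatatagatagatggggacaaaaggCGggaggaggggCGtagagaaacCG
near Zfp395: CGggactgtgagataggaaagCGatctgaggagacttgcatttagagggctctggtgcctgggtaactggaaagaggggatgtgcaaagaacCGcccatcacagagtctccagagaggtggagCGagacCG
Rgl1: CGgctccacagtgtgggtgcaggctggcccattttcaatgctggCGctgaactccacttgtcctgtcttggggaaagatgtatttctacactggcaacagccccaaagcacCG

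Gains of this size were rare. Of all windows, 0.72% were higher in KI by 8 points or more, and the mirror limit of 8 points lower in KI was passed by 22079 windows, 17.5% of all. Even without a limit, 26391 windows were higher in KI (21% of all) and 97627 were lower (77.5%), and the median window changed by -2.66 points. Of the members, 401 gained 8 to under 10 points, 115 15 points or more and 30 gained 20 points or more. The members just inside it changed by 8 points, and they were a window between genes on chromosome 17 (84.7% in KI, 76.7% in WT), one in Ppp2r1b (60.0% in KI, 52.0% in WT) and one in Parp3 (72.9% in KI, 64.9% in WT). Just outside it were windows in Camta1 (49.1% in KI, 41.1% in WT), Prex1 (63.9% in KI, 55.9% in WT) and Cradd (16.1% in KI, 8.10% in WT).

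**Figure D1:**
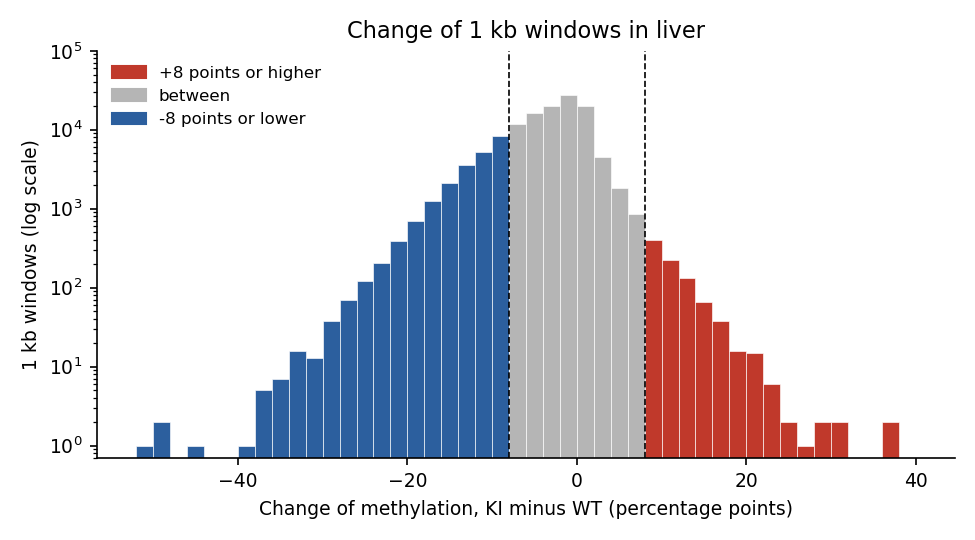
Number of 1 kb windows (vertical axis, log scale) by the change of methylation, KI minus WT, in percentage points (horizontal axis, steps of 2 points). Dashed lines mark 8 points on each side; the 906 windows on the right are the members, against 22079 windows on the left.

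The members were windows of intermediate methylation in both libraries. Their median was 57.5% in KI and 46.2% in WT, and the middle 50% of them lay between 42.3% and 71.7% in KI and between 30.6% and 60.7% in WT. Over all windows the median was 60.5% in KI and 64.7% in WT. In KI 262 of the 906 members were above 70%, and in WT 45 were under 10%. A single member was above 50% in KI and under 20% in WT. By the WT level, the share of windows that were members was highest at 20 to 30% (4.19%) and at 30 to 40% (3.87%), and was 0.239% under 10% and 0.137% at 70 to 80%. The WT level is part of the difference that chose the members, so these shares describe the choice. The gain had a median of 10.3 points and ran up to 37.6 points.

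Members were read less deeply than other windows. The median member held 7 measured CpGs and 204.5 reads in KI and 202.5 in WT, summed over its CpGs, whereas the median over all windows was 10 CpGs, 717 reads in KI and 762 in WT. Of the windows with 10 to under 20 reads per CpG in the library with fewer reads, 2.65% were members (385 of 14507). The share was 0.986% at 20 to under 40 reads, 0.408% at 40 to under 80, 0.183% at 80 to under 160 and 0.066% at 160 or more (7 of 10600). It also fell with the number of CpGs, with 1.33% of windows with 5 or 6 CpGs and 0.22% of those with 20 or more. The part of depth in the choice of the members was not tested. There were 166 members with at least 500 reads in the library with fewer.

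**Figure D2:**
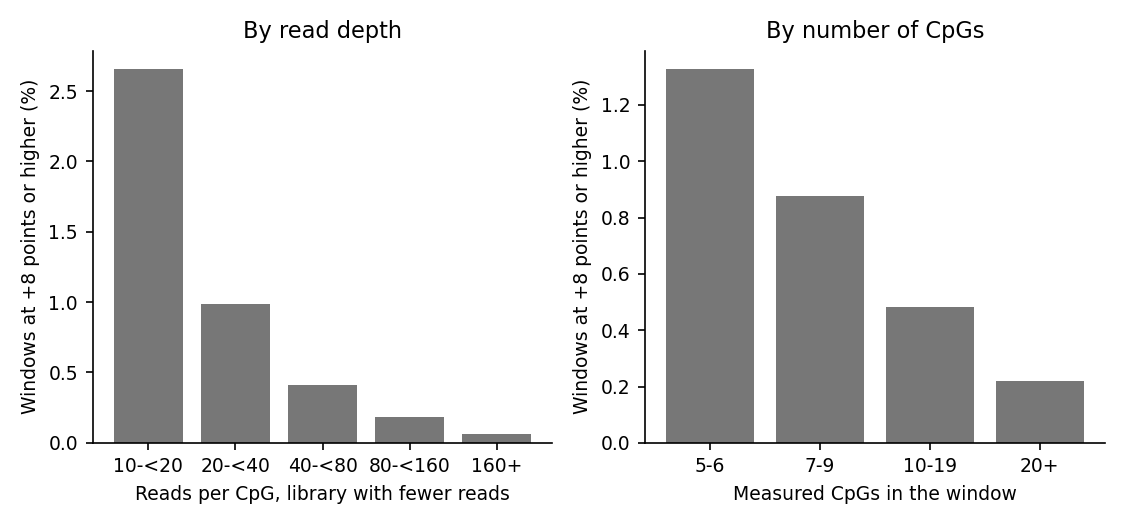
Share of 1 kb windows that gained 8 points or more in KI (vertical axes, %), by reads per CpG in the library with fewer reads (left) and by the number of measured CpGs (right). The bars go down in both panels, with 2.65% of windows at 10 to under 20 reads per CpG and 0.066% at 160 or more.

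Of the 8462 measured CpGs of the members, 6210 were higher in KI and 1502 were lower. At 64 members every CpG was higher, and at 384 members at least 80% were. The 5657 CpGs outside CCGG sites averaged 62.3% in KI and 48.7% in WT, a gain of 13.6 points. The 2805 CpGs inside CCGG sites averaged 36.6% in KI and 30.1% in WT, a gain of 6.57 points. A cut CCGG end is filled in with unmethylated cytosine before sequencing, which lowers the reading on 1 strand of such a site. That reading was mostly near 0 but not always, as on the minus strand of a site in Rgl1 (23.5% in KI, 0% in WT). All of these CpGs were used to choose the members.

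Because the cytosines of the plus and the minus strand are read from different molecules, windows could be chosen on 1 strand and measured on the other, which the choice had not used. At least 5 CpGs on each strand were measured in 61828 windows, of which 217 were members. The values that follow are therefore mostly of windows that are not members. On the plus strand, 622 of the 61828 windows, 141 of these being members, gained 8 points or more in KI, by a median of 10.4 points. On their minus strand the median was 55.2% in KI and 55.9% in WT, with a median change of -0.75 points, and 284 were higher and 338 lower in KI. A gain of 8 points or more was present on the minus strand at 61 of the 622 windows (9.81%), against 1% of all windows. The opposite choice gave much the same values. Of 618 windows that gained on the minus strand, 137 were members and 260 were higher on the plus strand (42.1%). On that plus strand 61 gained 8 points or more (9.87%, against 1.01% of all windows), and the median change was -0.95 points.

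Reads of the strand that was not used were compared by the Cochran-Mantel-Haenszel chi-square test, stratified by CpG and two-sided, at a Benjamini-Hochberg adjusted p under 0.05 over all 61828 windows. After the choice on the plus strand, 71 windows were called higher in KI on the minus strand (11.4%) and 104 lower (16.7%). Of all windows, 2.21% were called higher and 32.7% lower. After the choice on the minus strand, 73 were called higher (11.8%) and 101 lower (16.3%), against 2.17% called higher and 32.6% called lower of all windows. Among the chosen windows the share called higher was above that of all windows and the share called lower was below it, and calls in the lower direction were still the more frequent.

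Windows that lost 8 points or more on 1 strand had lost on the other in most cases. Of the 9944 chosen on the plus strand, 91.8% were lower in KI on the minus strand (73.1% of all windows), 65.3% were called lower (32.7% of all windows) and 49.9% were lower by 8 points or more (15.95% of all windows). A loss of 8 points or more was present on both strands of 4965 windows, and a gain of this size on both strands of 61.

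**Figure D3:**
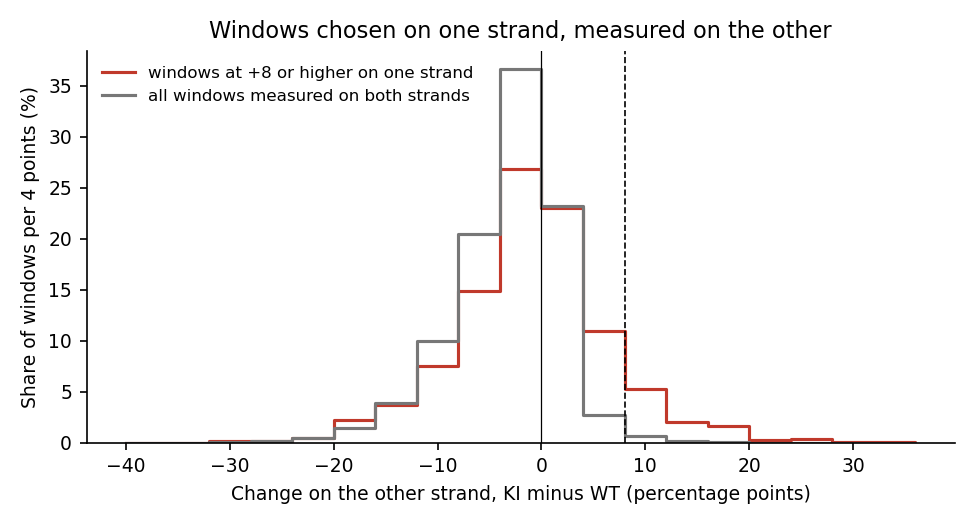
Share of windows (vertical axis, % per 4 points) by the change on the strand that the choice did not use, KI minus WT, in percentage points (horizontal axis). The red line holds the 1240 choices of windows at 8 points or more on one strand, most of which were not members. Of the 1240, 544 were higher in KI on the other strand and 122 passed the dashed line at 8 points. The grey line holds all 61828 windows.

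The 61 windows with a gain on both strands were members by definition, because a mean of 8 points on each strand passes the rule. Their median was 53.6% in KI and 39.0% in WT. They lay between genes in 20 cases, in exons in 18, in introns in 14 and within 1 kb of a gene start in 9. A mean gain on both strands can rest on few CpGs. In Nfatc1, 7 of 12 CpGs were higher and the median change over CpGs was 0.475 points, and in 1 window of Arfip1 3 of 10 were higher. In Nodal 37 of 40 were. Of the 466 members with at least 3 CpGs on each strand, 408 were higher in KI on both strands, 118 gained 8 points or more on both (25.3%) and 58 were lower on 1 strand. The share with 8 points or more on both strands was 24.1% of 112 members at 10 to under 20 reads per CpG and 30.2% of 53 members at 80 reads or more. The choice of the members used the CpGs of both strands. These counts therefore describe the members and are no separate check of 1 strand by the other.

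The windows next to the members held other CpGs. Of 364 neighbouring windows that were not members themselves, 134 were higher in KI (36.8%), against 20.4% of the 124992 windows that were not members. Their median was 58.0% in KI and 60.4% in WT, with a median change of -0.86 points, against -2.70 points over all windows that were not members. By the stratified test, 22 neighbours were called higher in KI (6.04%) and 70 lower (19.2%), against 1.36% called higher and 39.7% called lower of all windows that were not members. At a distance of 2 to 5 windows, 4.89% of 982 windows were called higher and 21.4% lower. A neighbour can share an MspI fragment, and so reads, with the member. Among the 259 neighbours that shared none, a comparison added after seeing the data, 3.09% were called higher and the median change was -1.12 points. Members seldom lay side by side, with 11 adjacent pairs, among them pairs in Nr5a2, Nkx2-2, Asap3, Grik4, Gnai2, Hdac5, Mafg and Rin3.

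CpGs of the members that were too shallow for the coverage minimum were not used by the choice either. The 1855 with 5 to 9 reads averaged 48.0% in KI and 47.7% in WT, a change of 0.35 points, with 40.6% higher and 36.8% lower in KI. The same class over all windows was at a lower level, 28.5% in KI and 30.2% in WT. It changed by -1.75 points, with 17.1% higher, 23.3% lower and the rest equal. The shallow CpGs of the members can share reads with the ones that were used.

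The members lay within genes more often than windows in general and less often at gene starts. These are shares without a test. Introns held 349 members (38.5%, against 28.9% of all windows) and other exons held 176 (19.4%, against 15.4%). Within 1 kb of a gene start lay 82 members (9.05%, against 14.8%), and 299 lay between genes (33.0%, against 40.8%). CpG-rich windows, with at least 55% GC and an observed over expected CpG ratio of at least 0.6, made up 22 members (2.43%, against 7.83%). Sequence that occurs in many copies was scarce among them. By the copy number of 16-base words around the CpGs, 74 members had 5 or more copies (8.17%, against 23.3% of all windows). Most members (83.4%, against 70.7%) were measured on a single MspI fragment. Every autosome held members, between 0.439% of the windows on chromosome 15 and 1.18% of those on chromosome 9. GC content (median 49.7%, against 48.9%) and CpGs per kb (median 17 in both) were close to those of all windows.

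Named windows were the 10 members with the largest gain, the 10 largest with at least 500 reads in each library, the 10 largest within 1 kb of the start of a protein-coding gene, and the 10 with the largest gain on the weaker of their strands, 34 in all. Each value below is the mean over the CpGs of the window, and the error of a gain is the counting error of the mean.

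**Figure D4:**
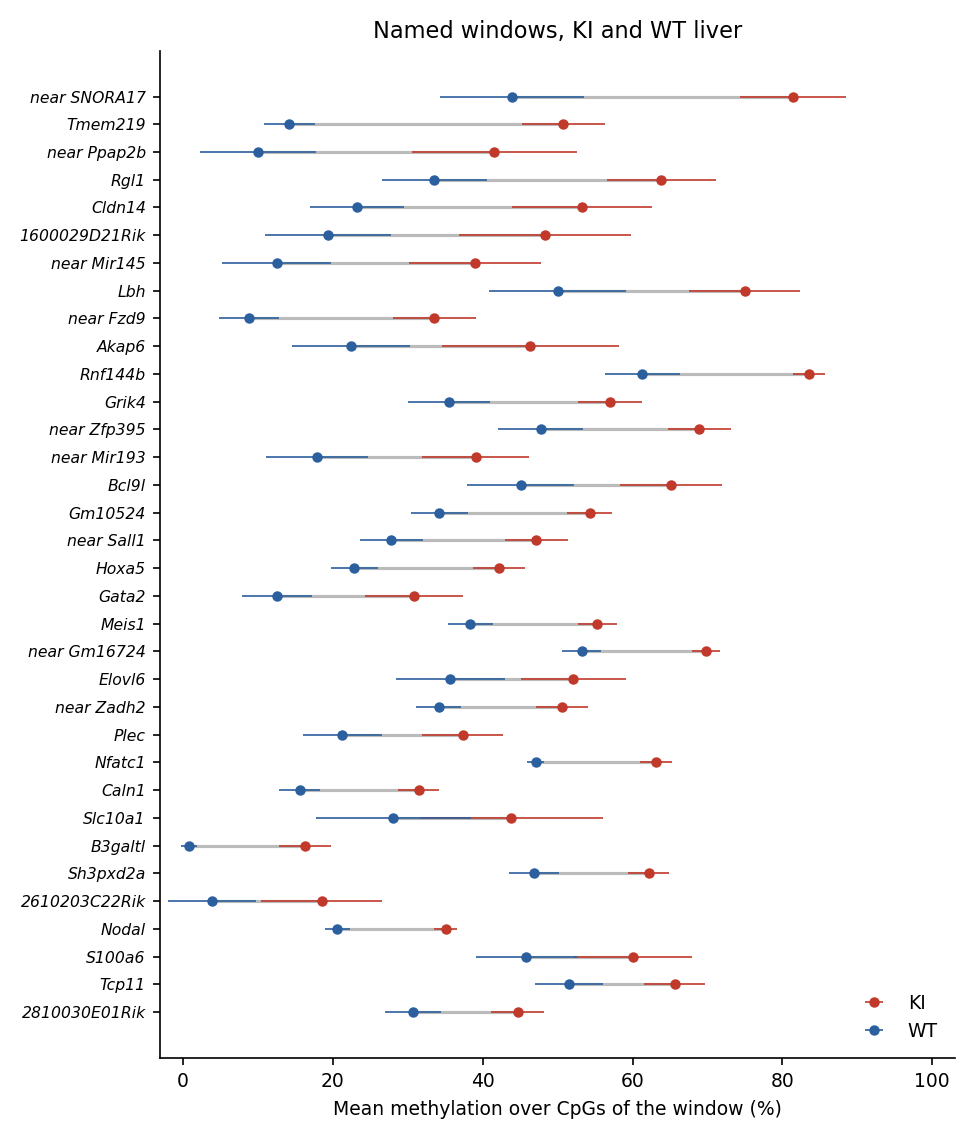
Mean methylation (horizontal axis, %) of the 34 named windows (rows, sorted by gain) in KI (red) and in WT (blue), with 95% counting intervals that treat every read as independent. KI is the higher point in every row because the windows were chosen that way; the intervals are wide for windows such as the one in Slc10a1, with 53 reads in KI and 68 in WT.

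The largest gains came from shallow windows. A window between genes on chromosome 6, nearest to a SNORA17 gene, was at 81.4% in KI and 43.9% in WT (a gain of 37.6 ± 6.09 points) on 7 CpGs of the minus strand, with 70 reads in KI and 90 in WT. The 16-base words around these CpGs occur in 1133.5 copies (median), and the gain was 22.8 points with CpGs of at least 5 reads and 20.6 points with the strands of a CpG summed. Tmem219, which encodes a membrane protein, held the next one on chromosome 7, over an exon with untranslated sequence, at 50.7% in KI and 14.2% in WT. Its gain of 36.6 ± 3.31 points was seen at all 12 CpGs, on the plus strand only, with 292 reads in KI and 423 in WT. The intron of Rgl1, a guanine nucleotide exchange factor for Ral, was at 63.9% in KI and 33.5% in WT and gained 34.3 points on the plus and 26.3 points on the minus strand. Its 6 CpGs, 4 of them inside CCGG sites, had 79 reads in KI and 123 in WT. Further windows of this size lay in the tight-junction gene Cldn14 (53.2% in KI, 23.2% in WT) and between genes. The one with Ppap2b as the nearest start, 180934 bp away, was at 41.5% in KI and 10% in WT. The one with the Wnt receptor gene Fzd9 as the nearest start, 25503 bp away, was at 33.5% in KI and 8.80% in WT. Once both strands of each CpG were added together, the gain near Ppap2b was 6.44 points instead of 31.5 and that near Fzd9 14.2 points instead of 24.7. An exon of 1600029D21Rik was at 48.3% in KI and 19.4% in WT, but with the CpGs of 5 to 9 reads added the direction turned, to a change of -12.4 points. Adding those CpGs also lowered the gain between genes at 12487 bp from the start of Mir145 to 10.3 points, against 26.5 without them. It lowered the gain in Lbh to 11.3 points, against 24.96, and in Akap6 to 12.4 points, against 23.9.

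Windows read more deeply and on both strands had smaller gains. The stretch beyond the end of Sall1, a zinc-finger transcription factor of kidney development, was at 47.2% in KI and 27.8% in WT (19.4 ± 3.05 points), with 1003 reads in KI and 828 in WT. Of its 17 CpGs 16 were higher in KI, and it gained 14.7 points on the plus and 24.7 points on the minus strand. That minus strand was shallow, with 13 to 15 reads per CpG in KI and 10 in WT. At a minimum of 20 reads per CpG the gain was 14.7 points, from the plus strand alone. Meis1, a homeobox partner of the Hox proteins, was at 55.3% in KI and 38.3% in WT over a coding exon (17.0 ± 2.03 points), with 27 of 29 CpGs higher. Its strands gained 16.1 points on the plus and 18.97 points on the minus strand. In the printed Meis1 sequence the CpGs ran between 18.9% and 84.8% in KI and between 9.52% and 69.4% in WT, and all 21 measured cytosines were higher. The stretch with Zfp395 nearest, 32162 bp from its start, was at 68.9% in KI and 47.7% in WT. It gained 17.0 points on the plus and 25.5 points on the minus strand. Here too the minus strand was shallow, with 15 to 16 reads per CpG in KI and 13 to 14 in WT. An exon of Grik4, a kainate receptor subunit, was at 57.0% in KI and 35.5% in WT. The window after it was also a member (55.3% in KI, 42.3% in WT), but shared an MspI fragment, and so possibly reads, with it. In Rnf144b, a ubiquitin ligase gene, the plus strand gained 43.4 points and the minus strand 0.96 points, so that its mean of 22.2 points came from 1 strand. At a minimum of 20 reads per CpG its gain was 0.96 points.

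**Figure D5:**
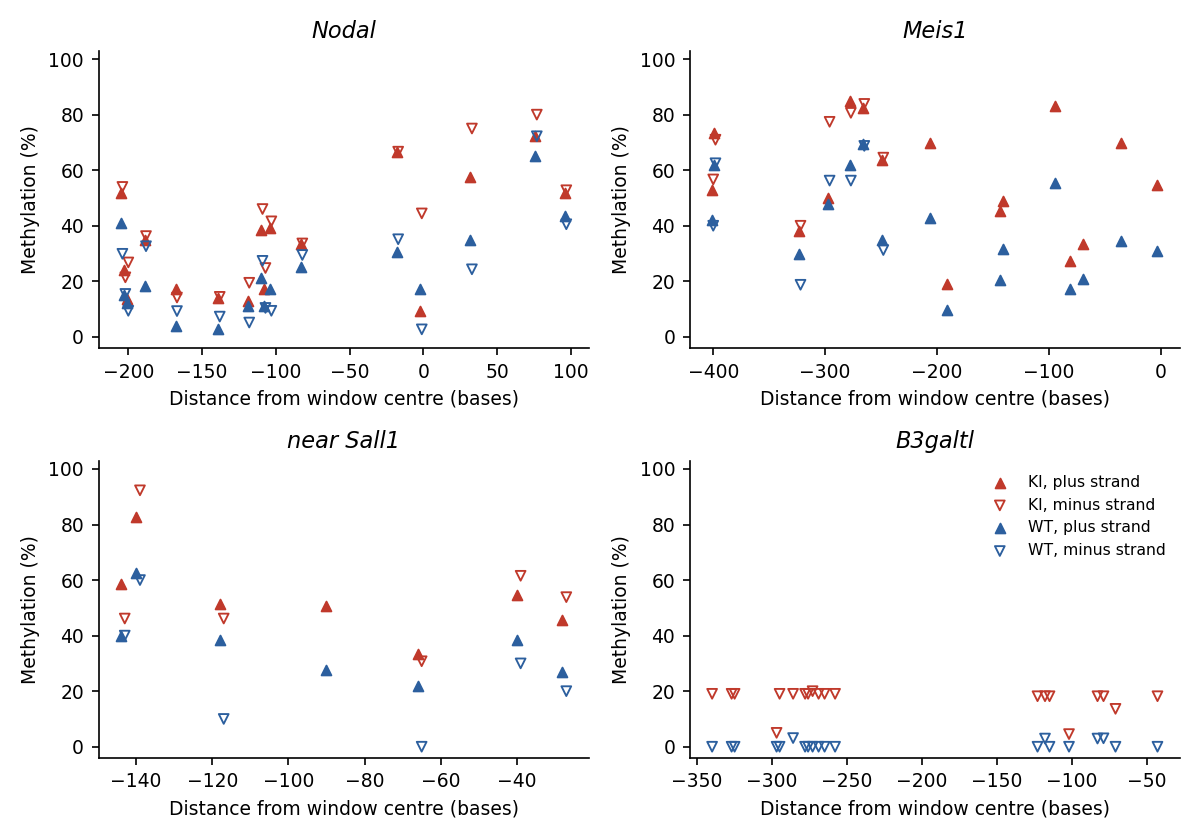
Methylation (vertical axis, %) of single CpGs outside CCGG sites by distance from the centre of the 1 kb window (horizontal axis, bases), in KI (red) and in WT (blue), plus strand as filled and minus strand as open triangles. In Nodal, Meis1 and near Sall1 the KI points are mostly above the WT points, at CpGs of many different levels, whereas in B3galtl most KI points lie at 18.2% or 19.1% and the WT points at 0 to 3.12%.

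Gene starts among the members included Nodal, Gata2, B3galtl, Bcl9l, Plec, Slc10a1, S100a6, Tcp11, 2810030E01Rik and 2610203C22Rik. Nodal encodes a secreted ligand of the TGF-beta family that patterns the embryo. Its window was at 35.1% in KI and 20.6% in WT (14.5 ± 1.16 points), 37 of its 40 CpGs were higher, and it was the most deeply read of these starts with 4170 reads in KI and 2928 in WT. Nodal gained 10.99 points on the plus and 17.9 points on the minus strand. Gata2, a transcription factor of blood progenitors, was at 30.9% in KI and 12.6% in WT (18.3 ± 4.10 points) over 18 CpGs of the plus strand, with a median of 10 reads per CpG in KI and 12 in WT. With the CpGs of at least 5 reads, 39 in all, the gain of Gata2 was 6.55 points. The start of Bcl9l, a cofactor of beta-catenin, was at 65.1% in KI and 45.1% in WT, with 26.2 points on the plus and 14.0 points on the minus strand. This window was shallow, with 120 reads in KI and 155 in WT summed over 10 CpGs. Slc10a1, the bile acid uptake transporter of hepatocytes, was at 43.8% in KI and 28.1% in WT, but its 5 CpGs gave a 95% counting interval from -0.23 to 31.7 points, and with the strands of a CpG summed its gain was 23.7 points.

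B3galtl, which encodes a glucosyltransferase, was nearly unmethylated in WT. Its window was at 16.3% in KI and 0.80% in WT, and 21 of its 22 CpGs were higher. In KI 10 of the CpGs had the same 4 methylated reads of 21, and no CpG had more than 4 methylated reads in KI or more than 2 in WT. In the printed sequence, the median CpG was at 19.1% in KI and 0% in WT. The reads summed over the window gave a 95% Wilson interval of 13.3% to 19.9% in KI and 0.383% to 1.81% in WT, but such intervals take the reads of neighbouring CpGs as separate, also where they are 1 read. Whether 4 molecules carried the methylation of all these CpGs was not tested.

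Neighbouring windows of the named ones were measured in several cases. By the stratified chi-square test with Benjamini-Hochberg adjustment over all windows, the window before that of Meis1, on other MspI fragments, was higher in KI (63.5% in KI, 57.2% in WT, adjusted p = 0.00677). The windows next to Plec (42.8% in KI, 35.95% in WT, adjusted p = 1.547e-09), Caln1 (25.2% in KI, 19.5% in WT, adjusted p = 0.000934) and Bcl9l (22.7% in KI, 15.04% in WT, adjusted p = 0.017) were also higher, by the same chi-square test, and each shared a fragment with its member. The chi-square test went the other way before Sh3pxd2a (27.4% in KI, 35.9% in WT, adjusted p = 0.000112) and Tcp11 (2.98% in KI, 4.26% in WT, adjusted p = 0.00166). Next to Nodal the values were 55.4% in KI and 48.6% in WT, and next to Gata2 14.9% in KI and 9.43% in WT, and neither passed the chi-square test (adjusted p = 0.171 and 0.102). The gains of members were therefore not always shared by the CpGs beside them.

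Further members with 8 points or more on both strands lay near Dmrt2 and in Cdx2, Thpo and Jak3. Near Dmrt2, a transcription factor of somite development, a window was at 45.8% in KI and 22.9% in WT. An exon of Cdx2, a homeobox gene of the intestine, was at 31.9% in KI and 16.1% in WT. The start of Thpo, which encodes thrombopoietin, a hormone made in the liver, was at 75.8% in KI and 62.7% in WT over 42 CpGs. An exon of Jak3, a kinase of lymphocyte cytokine receptors, was at 58.2% in KI and 41.1% in WT. These 4 were picked after their values were seen.

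Among genes of development (Hox, Sox, Pax, Fox, Gata, Wnt, Bmp and like families), 13 of 1155 windows were members (1.13%, against 0.72% of all windows) and 93 lost 8 points or more (8.05%, against 17.5%). The list had a median change of -0.57 points, against -2.66 points over all windows. It also started low, with a median of 10.6% in KI and 11.5% in WT, against 60.5% in KI and 64.7% in WT over all windows. The 13 windows lay at 11 genes. Wnt8a was at 48.4% in KI and 27.1% in WT, measured on 7 CpGs of the plus strand alone (182 reads in KI, 343 in WT). The window shared by Hoxa3 and Hoxa5, homeobox genes of the HoxA cluster, was at 42.2% in KI and 22.9% in WT, measured on the minus strand alone. Bmp4, a ligand of the bone morphogenetic protein family, was at 32.3% in KI and 18.9% in WT, also measured on the minus strand alone (959 reads in KI, 1476 in WT). Gata6, a factor of endoderm, was at 61.5% in KI and 49.99% in WT (3047 reads in KI, 3129 in WT). Hoxb3 held 2 members (35.1% in KI and 23.3% in WT, and 32.9% in KI and 22.3% in WT) and Nkx2-2 an adjacent pair (47.4% in KI and 37.5% in WT, and 47.9% in KI and 35.3% in WT). Windows in Pax6 (11.8% in KI, 1.54% in WT), Tbx18 (10.2% in KI, 1.59% in WT) and at a start of Hoxa3 (13.9% in KI, 2.97% in WT) were nearly unmethylated in WT and were measured on 5 or 6 CpGs of 1 strand. Nodal and Gata2 complete the list.

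Of the genes that methylate DNA or histone H3 at lysine 9, 3 of 106 windows were members (2.83%, against 0.72% of all windows) and 0 lost 8 points or more (17.5% of all windows). Dnmt3a, a methyltransferase that acts on unmethylated DNA, was at 23.2% in KI and 14.8% in WT (8.41 ± 1.18 points) within 1 kb of a start, with 2397 reads in KI and 2435 in WT. Setdb1, a histone H3 lysine 9 methyltransferase, was at 29.2% in KI and 21.1% in WT (8.16 ± 1.97 points) within 1 kb of a start. An intron of Dnmt1 was at 49.9% in KI and 41.6% in WT (8.30 ± 4.21 points), with 2.84 points on the plus and 19.2 points on the minus strand. All of these were close to the limit of 8 points.

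No member lay at the 86 windows of imprinted genes or at the 60 windows of germline genes. With 0.72% of all windows being members, lists of this size cannot show a shortage.

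At cell type markers, the members were 0 of 20 windows at hepatocyte genes, 0 of 9 at genes of blood and Kupffer cells, 0 of 34 at endothelial genes, 1 of 24 at genes of stellate cells and smooth muscle and 0 of 12 at genes of cholangiocytes. With a background of 0.72%, these counts show neither a shortage nor an excess. The 1 member was an intron of Tagln, a smooth muscle gene (15.5% in KI, 4.77% in WT, 5 CpGs). Within 1 kb of their starts, the hepatocyte genes were at 28.6% in KI and 37.1% in WT for Apob, 26.0% in KI and 39.6% in WT for Fgb, 29.1% in KI and 33.9% in WT for F2, and 45.2% in KI and 56.7% in WT for Hnf4a. The lymphocyte gene Cd3e (48.5% in KI, 65.3% in WT) and the endothelial gene Pecam1 (64.5% in KI, 69.1% in WT) were higher than these 4 genes in both libraries. The stellate cell and smooth muscle genes measured there had a median of 26.0% in KI and 26.5% in WT, and the cholangiocyte genes Epcam and Sox9 were near 0% in both. Of these starts, Cd3e, Fgb, Hnf4a and Apob had a mean more than 8 points lower in KI than in WT. Methylation at a start is not expression, and the part of cell makeup in the members' gains was not tested.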

How the data were processed

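Liver DNA of KI and WT mice was measured by RRBS, with 3 animals pooled into each of 2 libraries. Bismark, given as version 0.12.20 by the submitters' notes, mapped the reads to mm9, and the authors kept those with a unique position. The deposited files give for each cytosine the count of covering reads and the percent methylated among them. Methylated reads were recovered as whole numbers at 100% of the CpGs. The KI library listed 6452685 CpGs with a summed coverage of 173109895 and the WT library 7231934 with 192144002. No duplicate removal or trimming step is given in the sources used here. Strand was read from the mm9 sequence, on which all 8903110 autosomal positions were CpGs.

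Windows, members and gene lists were chosen with earlier results of these data known. Each CpG had the same weight in a window. CpGs that the choice had not used, which in neighbouring windows can share reads with those it used, were tested by the Cochran-Mantel-Haenszel test with Benjamini-Hochberg adjustment, and Fisher's exact test on summed reads was an alternative. Reads that span several CpGs and PCR copies make p-values too small and intervals too narrow. The counting error combines the binomial errors of the CpGs. Start sites, exons and genes came from GENCODE for mm9, and a window is placed by the span of its CpGs. Named windows followed the rule given with them. The alternatives changed coverage, CCGG sites, strands, weights, window start, CpG number and limit. The procedure was tested on simulated data. Other experiments of the study were not analysed here, and values of some marker genes are not reported here. Software was samtools 1.23.1 and Python 3.11.15 with pysam 0.24.0, numba 0.67.0, scipy 1.17.1, pandas 2.3.3, numpy 2.4.6 and matplotlib 3.10.9.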

Additional observations from a re-analysis of the deposited data

How the results depend on the processing

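The number of gaining windows followed the thresholds. It was 1969 of 143304 windows at a minimum of 5 reads per CpG, 399 of 104052 at 20 reads and 271 of 69607 with at least 10 CpGs per window. At a limit of 10 points it was 505 and at 15 points 115, against 906, each of 125898. With the strands of a CpG summed, reads summed over the window, the median over CpGs, windows shifted by 500 bases, CCGG sites left out, the highest coverage left out or the 2 left-out stretches kept, it was between 738 and 929. The windows that could pass were fewer in 2 of these settings. There were 738 gains among 90356 windows with the strands summed and 764 among 77406 without CCGG sites. Windows losing 8 points or more numbered 13893 of 90356 with the strands summed and 9487 of 69607 with at least 10 CpGs. They numbered 13843 at a limit of 10 points and 3729 at 15 points, against 22079, each of 125898. Neighbours called higher in KI made up 9.22% at 20 reads and 3.09% without a shared MspI fragment, a setting chosen after seeing the data. Windows chosen on one strand were called higher on the other in 7.74% at 5 reads, 7.40% with 3 CpGs per strand, 16.5% at 20 reads and 14.4% without CCGG sites, against 11.6% over both directions. Members with 5 or more sequence copies made up 10.8% at 5 reads and 1.504% at 20 reads, CpG-rich ones 4.51% at 20 reads and 3.66% without CCGG sites, and those within 1 kb of a gene start 11.5% without CCGG sites. Of the 34 named windows, 16 could still be measured at 20 reads, of which 15 gained 8 points or more, and 20 without CCGG sites, all of which did. It was 30 of 34 at 5 reads, 25 of 29 with the strands summed, and 31 of 34 each with reads summed (Zadh2 4.13, Akap6 7.07 and Rnf144b 6.27 points) and with the median (Nfatc1 0.48, Zadh2 2.60 and Rnf144b 7.96 points). The 2610203C22Rik window gained 1.98 points at 5 reads, and that of Tcp11 8.31 points at 20 reads. The 1600029D21Rik window reversed to -12.4 points at 5 reads. The CpGs under the coverage minimum changed by 1.55 points when those with 1 to 9 reads were taken. The causes of these shifts were not tested. No paired analysis was possible because each genotype is 1 library, and for the same reason no library could be left out.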
